A study of Mus musculus with 12 samples.

Results

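The genes described are 8 adipokine and adipokine receptor genes, chosen by name and read as the rows of the expression table that carry their symbols, out of 16670 genes listed. The 5 ligand genes are Adipoq, Lep, Retn, Rbp4 and Nampt, and the 3 receptor genes are Adipor1, Adipor2 and Lepr. RNA sequencing covered 12 libraries of inguinal white adipose tissue, a subcutaneous fat depot, from female C57BL/6 mice. Each replicate was a pool of tissue from 2 mice, dissociated with collagenase and separated by centrifugation into floating mature adipocytes and a pelleted stromal vascular fraction. The 4 groups were mature adipocytes labelled Kdm5c+/–, mature adipocytes of wild type (Kdm5c+/+), the stromal vascular fraction labelled Kdm5c+/–, and the stromal vascular fraction of wild type, with 3 libraries each. Kdm5c is an X-linked gene for a demethylase of histone H3 lysine 4, and the labels give neither the structure of the mutant allele nor the age of the mice.

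Adipokines are proteins that fat cells release into the blood or the surrounding tissue. Adiponectin (Adipoq) acts on muscle and liver through the receptors AdipoR1 and AdipoR2, leptin (Lep) reports the size of the fat stores to the brain through the leptin receptor (Lepr), and resistin (Retn) opposes insulin action in mice. Retinol binding protein 4 (Rbp4) carries vitamin A in plasma, and Nampt, also called visfatin in its secreted form, makes the precursor of NAD inside cells.

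Depth was 21836878 to 29434125 reads per library. Levels are given in CPM, reads per 1000000 of the library. A level of 0.102 to 0.137 CPM, depending on the library, equals 3 reads, a limit that covers counting error only. Replicates are separate pools, so p-values rest on the spread between pools. In limma the spread of each gene is drawn toward that of genes at similar levels. The errors, intervals and p-values of limma therefore do not measure the spread of that gene alone. The level of Kdm5c did not separate the labels: it ranged over 158 to 190.3 CPM in mature adipocyte libraries labelled Kdm5c+/–, with 174 to 180.0 CPM in wild type. In the other fraction it ranged over 175 to 194 CPM under the Kdm5c+/– label, against 180.1 to 188 CPM in wild type. Reads outside a deleted stretch would still count, so this does not test a partial deletion, and genotype is used below as the labels give it. Of 15 adipocyte markers, 13 had more RNA in mature adipocytes past an adjusted p of 0.05 in limma, and Aqp7, a glycerol channel that blood vessels also make, had less. All 12 endothelial, 12 progenitor, 11 macrophage and 10 lymphocyte markers tested were higher in the stromal vascular fraction. So were 9 of 10 pericyte and smooth muscle markers and 9 of 11 mammary epithelium markers, while 2 mammary markers were higher in mature adipocytes.

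The promoters of Adipoq, Lep and Retn are shown because these genes had the largest fitted folds toward mature adipocytes among the 8 genes, 43.9 to 49.0. The promoter of Rbp4, with a fold of 29.0, is not shown. That of Adipor1 is shown beside them because its level was close in both fractions. The sequences are the 250 bases before a RefSeq transcript start of each gene on GRCm38.p6. They are read 5′ to 3′ on the gene's own strand, which is plus for all 4. Adipor1 has another start, whose window is not shown. Capitals mark matches on either strand. The TATA box was searched as TATAA. The box named after its letters, CCAAT, was searched as such. The GC box was searched as GGGCGG, and the E box of clock and MYC family factors as CACGTG. A palindrome bound by C/EBP factors was searched as TTGCGCAA.
Adipoq, chr16:23146286-23146535: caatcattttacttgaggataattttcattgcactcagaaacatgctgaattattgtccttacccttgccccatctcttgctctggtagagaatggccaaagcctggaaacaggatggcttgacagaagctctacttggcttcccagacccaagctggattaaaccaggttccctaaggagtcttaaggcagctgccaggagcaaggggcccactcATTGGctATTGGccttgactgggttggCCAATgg
Lep, chr6:29059971-29060220: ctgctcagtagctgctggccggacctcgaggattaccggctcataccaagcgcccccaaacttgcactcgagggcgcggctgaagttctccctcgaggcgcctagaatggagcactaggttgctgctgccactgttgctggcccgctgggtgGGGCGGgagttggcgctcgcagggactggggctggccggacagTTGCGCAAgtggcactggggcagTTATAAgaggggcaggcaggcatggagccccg
Retn, chr8:3655520-3655769: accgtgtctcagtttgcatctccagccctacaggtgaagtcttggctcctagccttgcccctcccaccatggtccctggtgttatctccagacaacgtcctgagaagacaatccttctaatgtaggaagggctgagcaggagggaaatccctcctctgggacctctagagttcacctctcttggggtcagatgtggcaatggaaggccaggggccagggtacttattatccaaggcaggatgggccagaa
Adipor1, chr1:134415128-134415377: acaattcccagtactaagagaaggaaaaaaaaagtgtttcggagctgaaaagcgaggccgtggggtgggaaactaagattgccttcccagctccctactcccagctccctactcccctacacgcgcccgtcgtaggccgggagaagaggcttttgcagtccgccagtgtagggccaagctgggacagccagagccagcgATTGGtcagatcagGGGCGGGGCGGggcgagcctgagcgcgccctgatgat
The Adipoq window held 3 matches to CCAAT and 0 CpG dinucleotides, against a median of 6 CpG over 32851 mouse promoter windows. The Lep window held 16 CpG, a GC box, the TATA sequence, which matches on both strands here because its letters overlap, and TTGCGCAA, which occurs in 54 of all windows (0.164%). The Retn window held 2 CpG and no match to any of these letters. The Adipor1 window shown held 15 CpG, 1 match to CCAAT and 2 overlapping matches to GGGCGG. The window of its other start held 33 CpG, 2 matches to GGGCGG and no match to CCAAT. Over all windows, TATAA was found in 22.8%, CCAAT in 33.8%, GGGCGG in 32.7% and CACGTG in 6.02%. A match describes letters in the window and says nothing of binding in these cells.

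The first comparison asks in which fraction each gene was expressed. The RNA of 4 secreted factors, Adipoq, Lep, Retn and Rbp4, was 29.0 to 49.0 times higher in mature adipocytes on the fitted scale, Adipor2 was 5.65 times higher and Nampt 1.78 times higher. Lepr was the reverse, with under 1 CPM in every mature adipocyte library. These sizes depend on the method: log2 differences of the 4 factors were 4.86 to 5.62 in limma and 5.35 to 6.04 in edgeR. Adipor2 had 2.50 in limma and 2.98 in edgeR, and Nampt 0.83 and 1.32. Between fractions, 87.8% of the 14193 genes tested passed in limma, 28.7% with more RNA in mature adipocytes and 59.1% with less, and all 8 genes passed. The libraries of the fractions did not overlap for any of the 8, nor for 74.6% of the genes tested. That balance depends on scaling: among called genes, 4072 were higher and 8394 lower in mature adipocytes on the CPM scale, 6063 higher and 6145 lower in edgeR, and 6612 higher and 5776 lower with quantile normalization. edgeR called 86% and DESeq2 86.6% of genes, and each called 7 of the 8. In bulk fractions, fewer cells of a type and less RNA per cell cannot be told apart.

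Adipoq, which encodes the hormone adiponectin, is at 23146536 to 23158028 on the plus strand of chromosome 16 in GRCm38. Its mature adipocyte levels were 4602, 4514 and 4411 CPM under the Kdm5c+/– label, against 4169, 4299.9 and 3993 CPM in wild type. Its stromal vascular levels were 165, 169 and 55.8 CPM under the Kdm5c+/– label, against 105, 45.4 and 59.5 CPM in wild type. The lowest mature adipocyte library was far above the highest stromal vascular library, and within the stromal vascular fraction replicates 1 and 2 of the Kdm5c+/– label were highest. Means over both genotypes were 4331 ± 226 CPM in mature adipocytes, against 99.7 ± 55.6 CPM in the stromal vascular fraction (SD, n = 6 each), a log2(CPM + 1) difference of 5.62 ± 0.27 (SE, adjusted p = 2.18e-09, limma).

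Retn, which encodes resistin, is at 3655770 to 3660110 on the plus strand of chromosome 8. The mature adipocyte libraries had 1761, 1553 and 1738 CPM under the Kdm5c+/– label, against 1383, 1222 and 1469.7 CPM in wild type. The stromal vascular libraries had 63.4, 64.2 and 21.9 CPM under the Kdm5c+/– label, against 39.2, 14.9 and 24.2 CPM in wild type. The order of the 6 stromal vascular libraries was the same as for Adipoq, with replicate 3 of the Kdm5c+/– label low beside replicates 1 and 2. The log2 difference between fractions was 5.47 ± 0.28 (adjusted p = 3.11e-09).

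Lep, which encodes leptin, is at 29060220 to 29073877 on the plus strand of chromosome 6. Mature adipocytes had 1196, 738 and 2194 CPM under the Kdm5c+/– label, against 1382, 2628 and 2651 CPM in wild type. Stromal vascular cells had 46.1, 27.2 and 32.5 CPM under the Kdm5c+/– label, against 41.6, 29.8 and 43.9 CPM in wild type. Its spread within groups in mature adipocytes, 0.67 on the log2 scale, exceeded that of 98.2% of 11913 genes, whereas that of Adipoq, 0.04, exceeded that of 2.54%. The median gene had 0.15. The log2 difference between fractions was 5.46 ± 0.27 (adjusted p = 2.31e-09).

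Rbp4 is at 38116629 to 38125281 on the minus strand of chromosome 19. Levels in mature adipocytes were 405, 347 and 405 CPM under the Kdm5c+/– label, against 427, 377 and 393 CPM in wild type. Levels in stromal vascular libraries were 20.7, 19.4 and 8.75 CPM under the Kdm5c+/– label, against 15.7, 6.11 and 11.1 CPM in wild type. The genotypes overlapped in both fractions, while the fractions lay far apart. The log2 difference between fractions was 4.86 ± 0.23 (adjusted p = 1.58e-09).

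Nampt is at 32819545 to 32853349 on the plus strand of chromosome 12, where the noncoding gene Gdap10 lies within it on the same strand, so that reads over Gdap10 may have been assigned to either gene. Its mature adipocyte levels were 187, 243 and 145 CPM under the Kdm5c+/– label, against 167, 145 and 163 CPM in wild type. Its stromal vascular levels were 89.9, 119 and 87.5 CPM under the Kdm5c+/– label, against 83.0, 95.9 and 107 CPM in wild type. Nampt was present in both fractions, and its log2 difference of 0.83 ± 0.13 (adjusted p = 5.96e-05) was the smallest among the ligand genes.

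**Figure D1:**
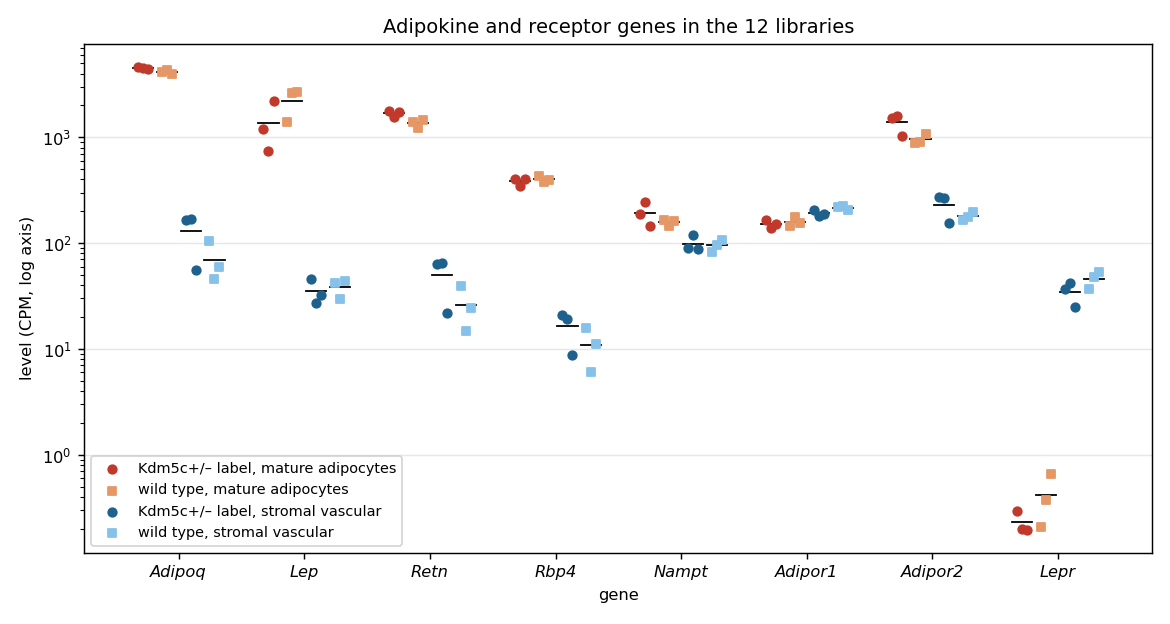
Level of each gene in CPM (log axis) in the 12 libraries, with groups side by side and black lines at the group means. The 4 adipocyte hormones and Adipor2 sit far higher in mature adipocytes, Lepr sits under 1 CPM there, and Nampt and Adipor1 differ least.

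Adipor1, the receptor best known from muscle, is at 134415378 to 134433351 on the plus strand of chromosome 1. The mature adipocyte libraries had 165, 139.9 and 150.4 CPM under the Kdm5c+/– label, against 144, 177 and 154 CPM in wild type. The stromal vascular libraries had 207, 179.6 and 190.0 CPM under the Kdm5c+/– label, against 219, 224 and 204 CPM in wild type. On the CPM scale every mature adipocyte library was below every stromal vascular library, and the log2 difference was -0.39 ± 0.07 (adjusted p = 0.000163). That call depended on scaling. Median-of-ratios scaling moved the median difference of all genes by 0.36 and gave -0.005 for Adipor1 (adjusted p = 0.946, limma), and edgeR gave 0.083 (adjusted p = 0.264) on reads recovered from the CPM.

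Adipor2, the receptor best known from liver, is at 119353150 to 119417704 on the minus strand of chromosome 6. Mature adipocytes had 1519, 1597 and 1025 CPM under the Kdm5c+/– label, against 889, 907 and 1073 CPM in wild type. Stromal vascular cells had 272, 266 and 156 CPM under the Kdm5c+/– label, against 164, 177 and 197 CPM in wild type. Replicate 3 of the Kdm5c+/– label was the low one of its group in both fractions. The log2 difference between fractions was 2.50 ± 0.16 (adjusted p = 1.97e-08).

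A ratio within a library does not change with a scaling factor of that library. The ratio of Adipor1 to Adipor2 ranged over 0.0876 to 0.195 (CPM over CPM) in mature adipocytes and over 0.675 to 1.34 in the stromal vascular fraction, so the 6 pools of each did not overlap. The log2 ratio was -2.87 ± 0.41 in mature adipocytes, against 0.02 ± 0.41 in the stromal vascular fraction (SD, n = 6 each), a difference of -2.89, and an exact two-sided sign-flip permutation test over the 6 pools gave p = 0.031, the smallest it can give.

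Lepr, counted over all its transcripts, long and short forms together, is at 101717404 to 101815352 on the plus strand of chromosome 4. Levels in mature adipocytes were 0.294, 0.200 and 0.196 CPM under the Kdm5c+/– label, against 0.207, 0.374 and 0.657 CPM in wild type, which is 5 to 17 reads per library. Levels in stromal vascular libraries were 36.7, 41.9 and 24.9 CPM under the Kdm5c+/– label, against 36.9, 47.8 and 52.8 CPM in wild type. The level in mature adipocytes was 0.478% to 1.24% of that in the stromal vascular fraction of the same pool. Medians of marker lists gave, on the same measure, 1.96% to 4.09% for endothelial, 2.57% to 4.62% for pericyte, 0.970% to 2.54% for progenitor, 1.1% to 5.05% for macrophage and 0.569% to 2.20% for lymphocyte markers. The range of Lepr overlapped those of the progenitor, macrophage and lymphocyte lists. Within every pool, though, Lepr was below the endothelial, pericyte, macrophage and lymphocyte medians. It was also below the progenitor median except in replicate 3 of wild type (1.24% against 1.03%). The log2(CPM + 1) difference was -4.93 ± 0.14 (adjusted p = 1.80e-11), a scale that shrinks the change of a gene this close to 0.

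Levels can be compared between genes per length. In CPM per kb of exon, averaged over 6 mature adipocyte libraries, Adipoq stood first with 3136 ± 163, then Retn with 963 ± 132, Lep with 536 ± 240 and Rbp4 with 292 ± 20.6 (SD). Adipor2 followed with 195 ± 52.0, then Nampt with 34.6 ± 7.26, Adipor1 with 30.9 ± 2.77 and Lepr with 0.0456 ± 0.0253. Retn and Lep, Lep and Rbp4, Rbp4 and Adipor2, and Nampt and Adipor1 had overlapping ranges. In the stromal vascular fraction the mean order was Adipoq (72.2 ± 40.3), Adipor1 (40.6 ± 3.37), Adipor2 (34.3 ± 8.58), Retn (24.0 ± 13.6), Nampt (19.2 ± 2.68), Lep (10.99 ± 2.38), Rbp4 (10.1 ± 4.4) and Lepr (5.70 ± 1.39), and neighbours in that order overlapped except for Nampt and Lep. The order depends on the length used. Per kb of the longest transcript, Adipor1 (45.0) came before Nampt (38.6) in mature adipocytes and Rbp4 (11.7) before Lep (11.3) in the stromal vascular fraction.

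**Figure D2:**
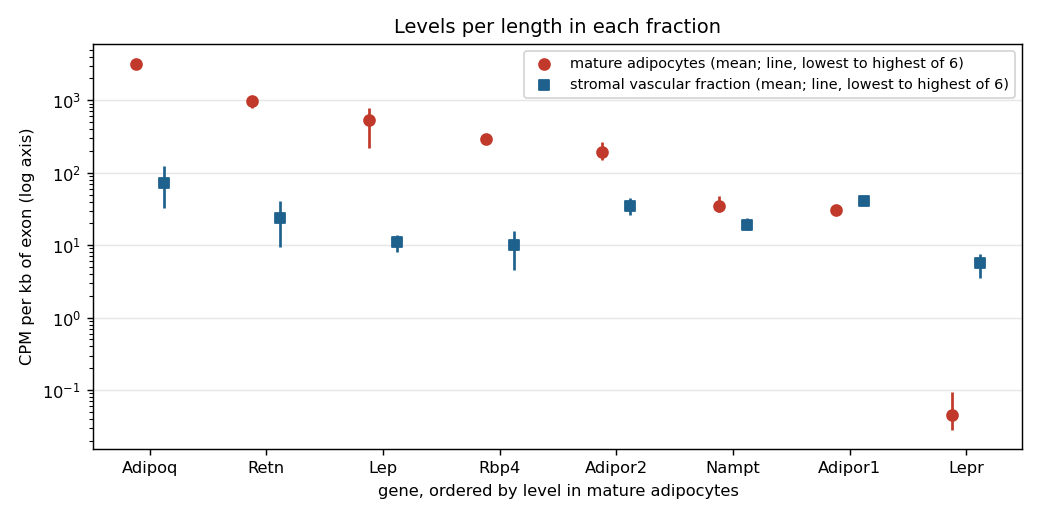
Mean level per kb of exon (log axis) over the 6 libraries of each fraction, with lines from the lowest to the highest library. In mature adipocytes the genes span from 3136 for Adipoq to 0.0456 for Lepr, and in the stromal vascular fraction from 72.2 to 5.70.

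Relative to mature adipocytes, the small stromal vascular signal of Adipoq, Lep, Retn and Rbp4 was highest in the same pools as the median of the adipocyte markers. Their sum did not show this: among wild-type stromal vascular libraries it was lowest in replicate 1 (10053 CPM), where Adipoq, Retn and Rbp4 were highest. The stromal vascular level, as a percent of the mature adipocyte level of the pool, ranged over 1.06% to 3.73% for Adipoq, 1.13% to 3.85% for Lep, 1.22% to 4.13% for Retn and 1.62% to 5.58% for Rbp4. The median of 15 adipocyte markers ranged over 1.99% to 5.57%. By this median, replicates 2 and 1 of the Kdm5c+/– label were highest at 5.57% and 5.04%, replicate 1 of wild type followed at 4.54%, and the other 3 pools lay at 1.99% to 2.75%. For Adipoq the same 3 pools led with 3.73%, 3.58% and 2.51%, and the other 3 lay at 1.06% to 1.49%. Within the markers the percentage ran from 1.97% for Slc7a10 to 217% for Aqp7. Adipor2 (15.2% to 19.5%) and Nampt (48.2% to 66.2%) were less reduced. The part of adipocyte RNA in the stromal vascular values was not tested.

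**Figure D3:**
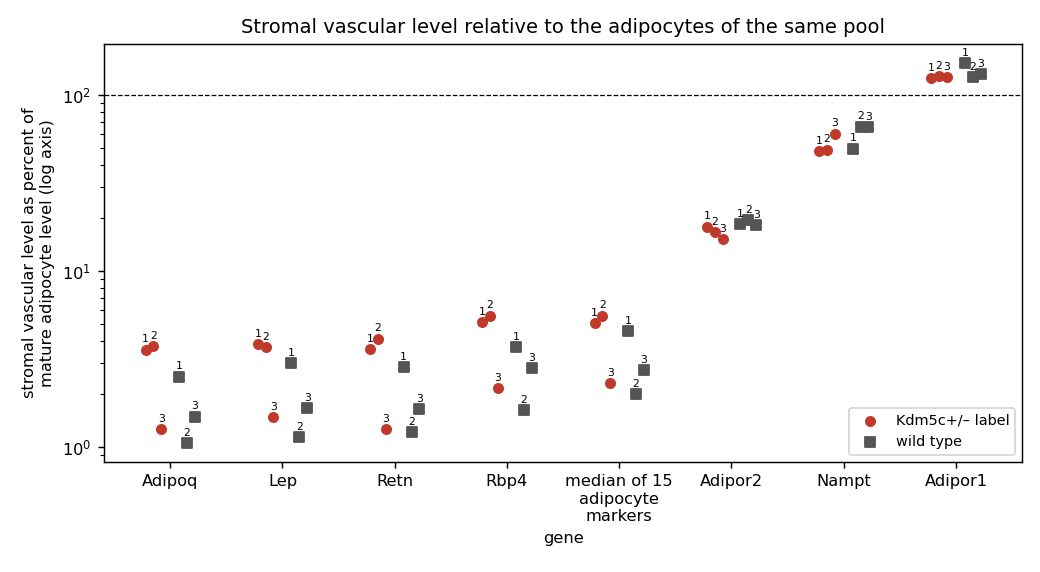
Stromal vascular level as percent of the mature adipocyte level in the 6 pools (log axis, dashed line at 100%). Adipoq, Lep, Retn, Rbp4 and the marker median lie at or under 5.58%, while Nampt lies at 48.2% to 66.2% and Adipor1 at 126% to 152%.

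The ratio of Adipoq to Lep was close in both fractions of a pool, while it differed between pools. In the 3 pools of the Kdm5c+/– label it was 3.85, 6.11 and 2.01 in mature adipocytes and 3.57, 6.20 and 1.71 in the stromal vascular fraction. In wild-type pools it was 3.02, 1.64 and 1.51 in mature adipocytes and 2.51, 1.52 and 1.35 in the stromal vascular fraction. The stromal vascular ratio was 0.833 to 1.01 times that of the mature adipocytes of the pool. For Retn to Adipoq the stromal vascular ratio was 0.996 to 1.15 times the mature adipocyte ratio, whereas for Adipor1 to Adipor2 it was 6.47 to 8.31 times.

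**Figure D4:**
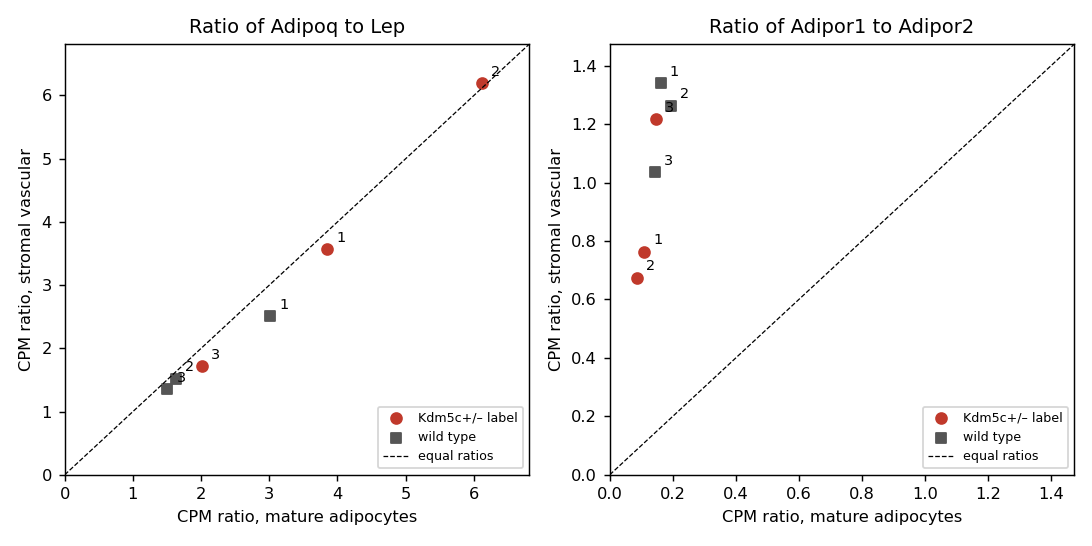
CPM ratios in each pool, mature adipocytes on the x axis and stromal vascular fraction on the y axis, with numbers giving the replicate and a dashed line at equal ratios. The Adipoq to Lep points lie near the line, at 0.833 to 1.01 times, and replicate 2 of the Kdm5c+/– label is farthest along it, while all Adipor1 to Adipor2 points lie above the line, at 6.47 to 8.31 times.

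Related genes are given with counts that passed in limma, to be read beside the shares of all genes tested, 28.7% higher and 59.1% lower in mature adipocytes. Among factors that act on adiponectin assembly and secretion, 2 of 11 were higher in mature adipocytes and 8 were lower there. Gstk1, which helps form adiponectin multimers, was higher in mature adipocytes by 2.25 ± 0.09 on the log2 scale, and P4ha1, a collagen prolyl hydroxylase, differed by -1.79 ± 0.11. Of 10 genes for adiponectin binding and signalling, 5 were higher in mature adipocytes and 4 were lower, and Cdh13, which encodes T-cadherin and binds adiponectin at the surface of vascular cells, differed by -4.84 ± 0.15. All 11 C1q/TNF relatives of adiponectin tested were higher in the stromal vascular fraction, among them C1qtnf6 (-4.94 ± 0.13). Of 8 PAQR relatives of the adiponectin receptors, 5 were higher in mature adipocytes, among them Mmd (4.43 ± 0.13), and 1, Paqr8 (-3.24 ± 0.11), was higher in the stromal vascular fraction. The median log2 difference was -0.48 for the assembly genes, close to the -0.45 of all genes tested, and it was 0.28 for binding, -3.98 for C1q/TNF and 0.80 for PAQR genes. In edgeR the assembly median was -0.01, beside -0.008 for all genes.

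For leptin receptor trafficking and signalling, 5 of 15 genes had more RNA in mature adipocytes, among them the adaptor Irs1 (2.14 ± 0.09) and the transcription factor Stat5a (1.54 ± 0.08), and 9 were higher in the stromal vascular fraction, among them the kinase Jak2 (-1.71 ± 0.06). These counts lie near the shares of all genes, as do those of the next list. For retinol binding and conversion, 7 of 19 were higher in mature adipocytes, among them the nuclear receptor Rxrg (2.83 ± 0.12), and 12 were higher in the stromal vascular fraction, among them the retinal dehydrogenase Aldh1a3 (-4.73 ± 0.15). For NAD synthesis and use, 6 of 17 were higher in mature adipocytes, among them Nnmt (3.73 ± 0.08), and 8 were higher in the stromal vascular fraction, among them the NAD-consuming enzyme Cd38 (-4.60 ± 0.10). Of 13 transcription factors of adipokine genes, 8 were higher in mature adipocytes, with 4.10 ± 0.11 for Cebpa, a C/EBP family regulator of fat cell genes, and 3 were higher in the stromal vascular fraction. Among 25 other secreted factors of fat, 13 were higher in mature adipocytes, including haptoglobin (Hp, 5.52 ± 0.23), and 9 were higher in the stromal vascular fraction, including Bmp4 (-3.51 ± 0.16). The receptors of other adipokines had 5 of 14 higher in mature adipocytes, including Klb, the coreceptor of FGF21 (5.36 ± 0.28). The other 9 were higher in the stromal vascular fraction, including the angiotensin receptor Agtr1a (-5.17 ± 0.07). These receptor counts also lie near the shares of all genes. Of 5 resistin relatives and binding partners, 4 were higher in the stromal vascular fraction. Their medians in that order were -0.51, -1.47, -0.11, 0.61, 1.06, -1.56 and -2.43. In edgeR, where the median of all genes was -0.008, the median of the leptin list was -0.04, that of the NAD list 0.35, and the retinol list kept a negative median.

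Genes with the most similar pattern over the 12 libraries were found by the root mean square difference of centred log2(CPM + 1) values among 11268 genes. For Adipoq these were Plin1 (0.12), a coat protein of the lipid droplet, and Retn (0.15). For Retn they were Adipoq (0.15) and Plin1 (0.17). For Rbp4 they were Cdo1 (0.13) and Aldh1a7 (0.16), and for Lep the nearest, Tmem45b, was farther away at 0.48. For Adipor2 they were Dhrs7b (0.16) and Eci1 (0.16), a mitochondrial enzyme of fatty acid oxidation. For Lepr they were Pcp4l1 (0.14), Lmod1 (0.18), known from smooth muscle, and Ackr1 (0.20), known from venules. These genes averaged 0.271, 0.538 and 0.297 CPM in mature adipocytes, where log2(CPM + 1) shrinks differences, as for Lepr. Their likeness thus rests mostly on the stromal vascular libraries, and the cell source of Lepr was not tested. The nearest gene to Nampt was Cp (0.12), and the nearest to Adipor1 was Smu1 (0.07).

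The second comparison asks whether the genes differ between the genotype labels within mature adipocytes. None of the 7 genes tested passed: limma called 0 of 11913 genes (0%) in this comparison, with 1737 (14.6%) under an unadjusted p of 0.05, edgeR also called 0 (0%), with 1755 (14.7%), and DESeq2 called 250 (2.1%) but none of these genes. Lepr fell under the filter of 1 CPM and was not tested. Adipoq averaged 4509 ± 95.7 CPM in libraries labelled Kdm5c+/–, against 4154 ± 154 CPM in wild type (SD, n = 3 each), and Retn averaged 1684 ± 114 CPM in libraries with the Kdm5c+/– label and 1358 ± 126 CPM in wild type. In both genes all 3 Kdm5c+/– libraries lay above all 3 wild-type libraries, as did 9.44% of genes tested (22% with either direction). The log2 differences were 0.12 ± 0.13 for Adipoq (95% interval -0.18 to 0.42, adjusted p = 0.673) and 0.31 ± 0.13 for Retn (0.01 to 0.61, adjusted p = 0.337, limma). With quantile normalization Adipoq was -0.12.

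Adipor2 averaged 1381 ± 310.1 CPM in libraries labelled Kdm5c+/–, against 956 ± 101 CPM in wild type, and the groups overlapped through replicate 3 of the Kdm5c+/– label. Its log2 difference was 0.51 ± 0.19 (0.05 to 0.97, adjusted p = 0.321, limma). It was 0.71 (adjusted p = 0.0846) without that library, 0.39 (0.445) without replicate 2 and 0.43 (0.628) without replicate 1 of the label. Lep averaged 1376 ± 744 CPM in libraries labelled Kdm5c+/–, against 2220.4 ± 726 CPM in wild type, and the groups overlapped. Its log2 difference was -0.77 ± 0.44 (-1.81 to 0.27, adjusted p = 0.432). It was -1.18 (adjusted p = 0.138) without replicate 3 of the Kdm5c+/– label, and -0.39 without replicate 2. Nampt differed by 0.24 ± 0.18 (adjusted p = 0.543), or 0.06 without replicate 2 and 0.43 without replicate 3 of that label. Rbp4 (-0.05 ± 0.11) and Adipor1 (-0.06 ± 0.11) were within their error, with adjusted p of 0.841 and 0.818.

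A pair of ratios were also compared between labels in mature adipocytes. The log2 ratio of Adipoq to Lep was 1.85 ± 0.81 in libraries labelled Kdm5c+/– and 0.96 ± 0.55 in wild type (SD, n = 3 each), a difference of 0.89 (exact two-sided permutation p = 0.2). It was 0.51 without replicate 2 and 1.31 without replicate 3 of the Kdm5c+/– label. The log2 ratio of Adipor1 to Adipor2 was -3.15 ± 0.37 in libraries labelled Kdm5c+/– and -2.59 ± 0.22 in wild type, a difference of -0.57 (exact permutation p = 0.2). It was -0.39 without replicate 2 and -0.76 without replicate 3 of that label. With 3 against 3 libraries the smallest p is 0.1.

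Most markers of endothelial, progenitor, pericyte and macrophage cells had negative differences in these libraries, and none passed adjustment. Among all genes tested here, 5139 of 11913 had positive differences. The summed endothelial markers were 139 to 255 CPM in libraries labelled Kdm5c+/– and 314 to 398 CPM in wild type, and all 12 had negative differences. Of 10 pericyte and smooth muscle markers 9 were negative, and all 10 macrophage markers tested were negative, summing to 63.7 to 92.9 CPM under the Kdm5c+/– label, against 71.0 to 157 CPM in wild type. Summed progenitor markers were 1272 to 2520.3 CPM under the Kdm5c+/– label, against 2211 to 2629 CPM in wild type. The 15 adipocyte markers summed to 51023 to 51377 CPM under the Kdm5c+/– label, against 46738 to 47386 CPM in wild type. Of these markers only 8 had positive differences and 7 had negative ones, so the sum does not describe the list as a set. None of the marker genes passed adjustment, and none of the defining markers of the endothelial or progenitor lists was at 0 in all libraries of a group. The mean sum of adipocyte markers under the Kdm5c+/– label was 1.09 times that in wild type. Fitted folds of the genes tested were 1.09 for Adipoq, 1.24 for Retn, 1.42 for Adipor2, 1.18 for Nampt, 0.97 for Rbp4, 0.96 for Adipor1 and 0.59 for Lep. Rn45s, the ribosomal precursor transcript, was at 4813 to 7692 CPM under the Kdm5c+/– label, against 3794 to 4386 CPM in wild type, with no overlap. The part of these shifts in the genotype values was not tested.

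In the stromal vascular fraction, 1 of 13792 genes passed in limma (0.00725%), and it was Rps4l, a ribosomal protein gene named after its value was seen and not one of the 8, with 1043 (7.56%) under an unadjusted p of 0.05. edgeR called 1 gene (0.00725%), with 943 (6.84%) unadjusted, and DESeq2 53 (0.384%), none of the 8. The genotypes overlapped for all 8 genes, whereas 13.5% of genes tested did not overlap. Retn differed by 0.86 ± 0.50 on the log2 scale (95% interval -0.35 to 2.07, adjusted p = 0.697), Adipoq by 0.81 ± 0.50 (-0.39 to 2.01, 0.708) and Rbp4 by 0.53 ± 0.41 (-0.47 to 1.53, 0.758). Without replicate 3 of the Kdm5c+/– label Adipoq differed by 1.33 (adjusted p = 0.340), Retn by 1.36 (0.351) and Rbp4 by 0.90 (0.456). Adipoq differed by 0.56 without replicate 1 and 0.54 without replicate 2 of that label. Without replicate 2 of wild type Adipoq, Retn and Rbp4 differed by 0.55, 0.52 and 0.20. Adipor2 differed by 0.33 ± 0.22 (-0.19 to 0.84, 0.724), or 0.59 (0.239) without replicate 3, 0.19 (0.847) without replicate 1 and 0.20 (0.952) without replicate 2 of the Kdm5c+/– label. Lepr differed by -0.42 ± 0.21 (-0.92 to 0.09, 0.668), or -0.20 without replicate 3 of that label. Adipor1 differed by -0.17 ± 0.09 (0.668), Lep by -0.13 ± 0.22 (0.902) and Nampt by 0.05 ± 0.14 (0.954).

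Marker levels were also compared between the labels in the stromal vascular fraction. Among all genes tested there, 5600 of 13792 had positive differences. Of 15 adipocyte markers 14 had positive differences, and they summed to 10065 to 14920 CPM under the Kdm5c+/– label, against 10053 to 11151 CPM in wild type. Replicate 3 had the lowest sum among the Kdm5c+/– libraries, but within wild type the sum did not follow the adipokines: it was lowest in replicate 1, where Adipoq, Retn and Rbp4 were highest. All 11 macrophage markers were positive, summing to 2403 to 3645 CPM under the Kdm5c+/– label, against 2403 to 2537 CPM in wild type. All 12 endothelial markers were negative, summing to 7543 to 9684 CPM under the Kdm5c+/– label, against 9588 to 10114 CPM in wild type, and 9 of 10 pericyte markers were negative. Progenitor markers, 9 of 12 positive, summed to 24866 to 38457 CPM under the Kdm5c+/– label, against 19863 to 28741 CPM in wild type. Lymphocyte markers were positive in 3 of 10 and mammary epithelium markers in 7 of 11. Rn45s was at 8985 to 19532 CPM under the Kdm5c+/– label, lowest in replicate 3, against 6554 to 6733 CPM in wild type. The part of these shifts in the values was not tested.

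**Figure D5:**
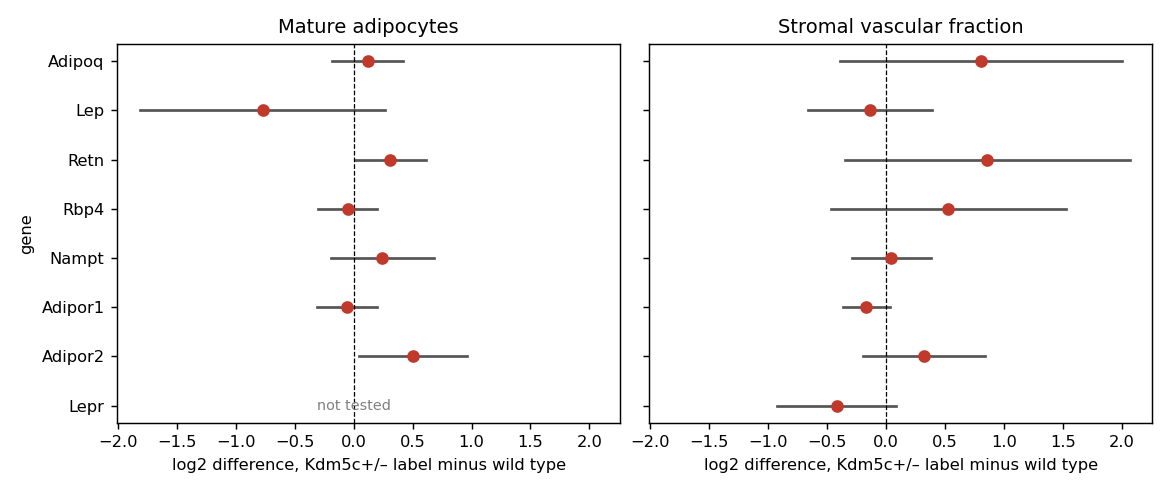
Log2 difference of the Kdm5c+/– label minus wild type for each gene, with its 95% interval, for mature adipocytes on the left and the stromal vascular fraction on the right. The intervals of Retn (0.01 to 0.61) and Adipor2 (0.05 to 0.97) in mature adipocytes lie above 0 before adjustment, and no gene passed after it.

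The difference between the genotype differences of the 2 fractions was tested in all 12 libraries, as the difference in mature adipocytes minus that in the stromal vascular fraction. limma and edgeR called 0 of 14193 genes (0%), with 1267 (8.93%) and 1427 (10.1%) under an unadjusted p of 0.05, and DESeq2 called 67 (0.472%). Among the 8 genes the log2 values ran from -0.69 ± 0.54 for Adipoq to 0.23 ± 0.28 for Lepr, with adjusted p of 0.736 to 0.895. The Lepr value was -0.43 in edgeR and in DESeq2, so its sign depended on the method. Lepr had 5 to 17 reads per mature adipocyte library, where log2(CPM + 1) shrinks a difference. With each library left out in turn the Adipoq value ran from -1.21, without replicate 3 of the Kdm5c+/– label in the stromal vascular fraction, to -0.42, without replicate 2. In the same way Retn ran from -1.05 to -0.21, Rbp4 from -0.95 to -0.25, Lep from -1.04 to -0.26 and Lepr from 0.016 to 0.38. The fraction comparisons share the same libraries as the genotype comparisons.

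In the lists of related genes, none passed between genotypes in either fraction. In mature adipocytes the smallest p was that of Clock, a core gene of the circadian clock, at -0.42 ± 0.09. It was followed by Calcrl, a receptor component of vascular cells, at -1.19 ± 0.25, Calr, an endoplasmic reticulum chaperone, at 0.63 ± 0.13, and the clock gene Arntl at -1.46 ± 0.33, each with an adjusted p of 0.273 in limma. Of 10 genes for adiponectin binding and signalling, 5 were negative and 0 positive at an unadjusted p of 0.05, among them Cdh13 (-0.89 ± 0.25) and Appl1 (-0.34 ± 0.10). Of all genes, 9.01% were negative at that p and 14.6% passed it in either direction. The median of the list was -0.17, beside -0.03 for all genes. In the stromal vascular fraction the smallest p were those of Adm, which encodes the vasoactive peptide adrenomedullin, at -0.50 ± 0.11, Arntl at -0.29 ± 0.08 and Apln, which encodes the peptide apelin, at -1.07 ± 0.29, each with an adjusted p of 0.617 in limma.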

How the data were processed

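RNA was sequenced from mature adipocyte and stromal vascular fractions of inguinal fat, 3 pools of 2 mice per genotype label. The deposited values are CPM, counts scaled to 1000000 per library by the authors. The submitters' processing notes name GRCm38, the aligner STAR (2.7.2a) and edgeR (3.26.8). Which counting tool and annotation made the table is not given in the sources used here. Every CPM value was a whole multiple of one read within a tolerance of 0.05 (100% of values), so reads were recovered, and 23 symbols altered to dates by a spreadsheet are not named. Genes reaching 1 CPM in 3 or more libraries of a fit were tested with limma 3.58.1 (lmFit, eBayes with trend and robust) in R 4.3.3 on log2(CPM + 1), two-sided, with Benjamini-Hochberg adjustment over all genes tested and a threshold of 0.05. Genotype labels were compared within each fraction with its own 6 libraries, and the fractions and the difference between genotype differences in all 12. Ratios used exact permutation tests. Alternatives were a pseudocount of 0.25, no filter, a filter on mean level (5 CPM), scaling by median of ratios or by quantiles, a replicate block, edgeR 4.0.16 and DESeq2 1.42.0 on recovered reads, all 12 libraries, and leaving out each library. Levels per kb used exon lengths of GENCODE release M21 on GRCm38, and promoters are from RefSeq. The 95% intervals are those of limma and reflect the spread between pools, drawn toward that of genes at similar levels. The 8 genes, the related lists and the rule for naming their members (up to 2 per direction and list between fractions, and up to 2 per list by smallest p between genotypes, of which those with the smallest p and the adiponectin binding pair are given) were chosen with earlier results of these data known. The fractions of a pool carry the same replicate number. Over 11269 genes, their deviations from the group means correlated at 0.216 to 0.341 in all 6 pairs. Mature adipocyte libraries numbered 1 of the different labels reached 0.356, so these correlations do not establish the pairing. Pairs by number were used for the percentages and ratios by pool and for the sign-flip test. The main limma fits had no pair term, which only the replicate block alternative added. The code was tested on simulated data.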

Additional observations from a re-analysis of the deposited data

How the results depend on the processing

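The count of called genes among the 8 was 0 between genotypes in each fraction and for the difference between the genotype differences under the alternatives run, and 8 between fractions except 7 under median-of-ratios scaling, edgeR and DESeq2, where Adipor1 was lost. Adipor1 between fractions was 0.083 in edgeR and 0.0017 in DESeq2, against -0.39; those scalings moved the median of all genes by 0.44 and 0.36, and the cause was not tested. Adipoq in mature adipocytes was -0.12 with quantile normalization, and the Lepr difference between genotype differences was -0.43 in edgeR and -0.43 in DESeq2, with reads of 5 to 17 in mature adipocytes. With each library left out in turn, values that changed sign ranged over -0.091 to 0.024 for Rbp4 and -0.12 to 0.026 for Adipor1 between genotypes in mature adipocytes, -0.34 to 0.031 for Lep and -0.094 to 0.13 for Nampt in the stromal vascular fraction, and -0.079 to 0.38 for Adipor2 in the difference between genotype differences. The ratio of Adipor1 to Adipor2 between fractions was -2.93 to -2.86 with a pool left out, where 5 pools allow no p under 0.0625. With the replicate block, 0, 0, 8 and 0 genes were called in the same comparisons, and the paired fit gave 12503 called genes between fractions, so it changed no call among the 8. Genotypes share only a number: deviations of same-numbered libraries of the labels correlated at -0.274 to 0.356. Differences in this study are limited by 3 pools per group, by depth for Lepr in mature adipocytes, and by Kdm5c levels that overlap between the genotype labels.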
